A study of Caenorhabditis elegans with 2 samples.

Results

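The regions described here are the ZTF-11 regions of coding exons and 3′ UTRs on the autosomes of Caenorhabditis elegans. They were chosen from the pooled ce11 list by 2 criteria. The summit had to lie in an annotated coding sequence or 3′ UTR of an autosome, and outside every promoter window, which ran from 1500 bp before to 500 bp after a protein-coding gene's 5′ end. Of the 20223 pooled regions, 16790 were autosomal and 1962 met both criteria, 1492 in coding exons and 470 in 3′ UTRs. They are called exonic regions below. The choice used position only and no score.

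ZTF-11 was mapped by chromatin immunoprecipitation and sequencing (ChIP-seq) in whole L2 larvae, both sexes pooled, of strain OP236. This strain carries the unc-119(ed3) III mutation and the integrated transgene wgIs236, which expresses ZTF-11 with GFP and FLAG at its C terminus. The labels name ztf-11 as the antibody target, shearing was by sonication, and a control entered the region calling. There was 1 group of 2 biological replicates, without a second condition, and the deposited lists held 30000 regions for each replicate, 20223 for both pooled, and 210 thresholded peaks. Per the notes with the files, the long lists mix peaks with background. The lists give no read counts, so depth is unknown.

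ZTF-11 is the worm member of the MYT1 family of zinc finger proteins, which repress non-neuronal genes as neurons form and whose zinc fingers recognise the core AAAGTT. Sequence-specific factors are usually found at promoters and enhancers, where nucleosomes are displaced. Coding exons and 3′ UTRs are the transcribed body of a gene and its end. In chromatin of whole larvae, binding in few cells and weak binding in many cells cannot be told apart.

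To show what lay under the strongest of these regions, 29 bases centred on the summit are printed for the 6 coding exon regions of highest score. Each is written 5′ to 3′ on the strand of its gene, from the RefSeq sequence of WBcel235 (ce11), and the capital marks the summit base.
nlr-1: atgaccttcttcgaCcaatgattgtgact
lpl-1: atgctcgtcctattCttctgaacgctttt
T21H3.5: cttcattataatcgAttttttccggcaaa
dhc-4: aaattgttccagctAaccgtcctcattcg
glb-25: aaatatcttctcgaGggattcaacggata
wrt-3: ttgatgtaataaaaGatattcgaatgcat
The windows lie at chrIV:12173635-12173663 (minus strand), chrIV:9092546-9092574 (minus), chrV:1158346-1158374 (minus), chrIII:10989823-10989851 (plus), chrV:1953099-1953127 (plus) and chrIV:9476551-9476579 (minus), in that order. Annotated coding sequence held all 29 bases at nlr-1, lpl-1, T21H3.5 and wrt-3, 27 of them at glb-25 and 17 at dhc-4. None of the 6 windows holds AAAGTT or its reverse complement AACTTT. Within 50 bp of the summit the core was present at lpl-1, T21H3.5 and glb-25, with its nearest base 21, 39 and 14 bp from the summit in that order. At nlr-1, dhc-4 and wrt-3 these letters do not occur within 50 bp.

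Exonic sequence held fewer regions than its length would give it, and this held for coding exons and not for 3′ UTRs. Exonic regions were 11.7% of autosomal regions (95% Wilson interval 11.2 to 12.2), while 18.3% of autosomal sequence met the same criteria. Coding exons had 11.0 regions per 100 kb (exact Poisson interval 10.5 to 11.6), whereas 3′ UTRs had 29.5 (26.9 to 32.3), 2.67 times as many. Introns had 24.6 per 100 kb, intergenic sequence 20.6, promoters 21.2, and autosomal sequence as a whole 20.3. The intervals cover counting error only. Thus coding exons had the lowest density of these places and 3′ UTRs the highest.

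The same order held in each replicate's own list with smaller differences. In replicate 1, coding exons had 22.1 regions per 100 kb and 3′ UTRs 40.5, against 30.1 for all autosomal sequence. In replicate 2 the densities were 19.6 in coding exons and 42.3 in 3′ UTRs, against 29.9 overall. The 3′ UTR density was 1.83 times that of coding exons in replicate 1 and 2.16 times in replicate 2. On each autosome of the pooled list, coding exons were below and 3′ UTRs above the density of that chromosome's whole sequence. The density in coding exons ranged from 9.84 to 12.2 per 100 kb over the 5 autosomes, and that in 3′ UTRs from 25.1 to 39.3.

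**Figure D1:**
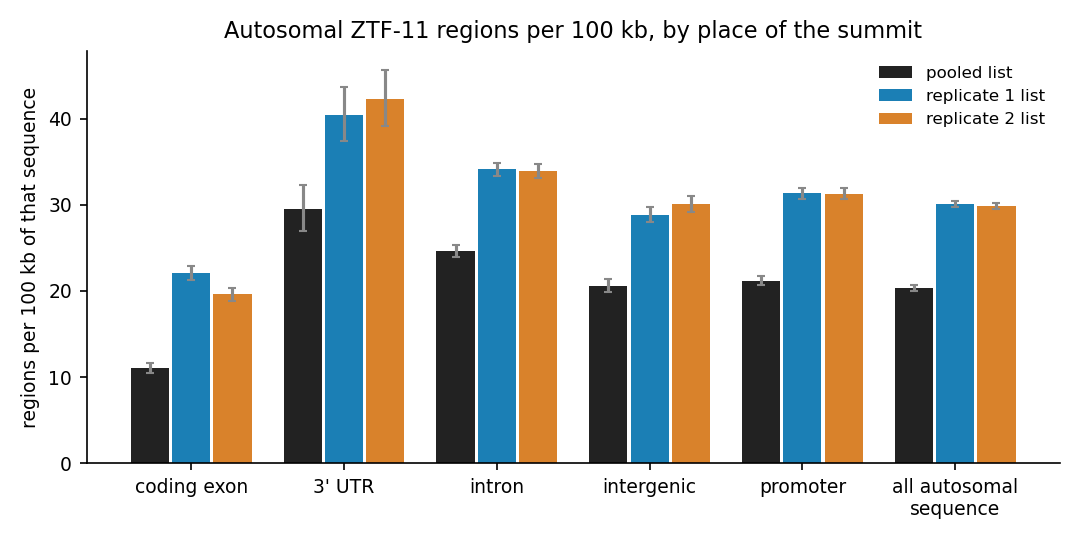
Autosomal regions per 100 kb of sequence (vertical axis) by the place of the summit, in the pooled list and in each replicate's list; bars start at 0 and error bars are exact 95% Poisson intervals. Coding exons are lowest and 3′ UTRs highest in all 3 lists, at 11.0 and 29.5 per 100 kb in the pooled list.

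The density was higher just past the end of the coding sequence than just before it, and in the pooled list higher again further into the 3′ UTR. Within the last 100 bp of coding sequence, measured along the genome, the pooled list had 123 summits, or 14.04 per 100 kb (11.7 to 16.7). Within the first 100 bp of 3′ UTR it had 139, or 20.97 per 100 kb (17.6 to 24.8). In replicate 1 the first 100 bp of 3′ UTR had 34.4 (30.1 to 39.2) and the last 100 bp of coding sequence 26.8 (23.5 to 30.5), intervals that overlap slightly. In replicate 2 these were 34.3 (29.9 to 39.0) and 25.8 (22.5 to 29.4), intervals that do not overlap. In the pooled list the density then was 27.6 per 100 kb between 100 and 200 bp into the 3′ UTR, 34.0 between 200 and 300 bp and 40.9 between 300 and 400 bp. Over the same 3 steps it was 34.3, 46.1 and 53.7 in replicate 1, and 44.5, 40.6 and 43.7 in replicate 2, which showed no steady rise. The first 100 bp of 3′ UTR held 662703 bases, and the step between 300 and 400 bp held 109900. Later steps thus drew on fewer genes, those with long 3′ UTRs, and do not describe a gradient within single 3′ UTRs. Over the first 500 bp of 3′ UTR the density was 27.2 in the pooled list, 38.5 in replicate 1 and 38.4 in replicate 2. Over the last 500 bp of coding sequence it was 11.7, 22.7 and 22.7 in the same lists. A pooled region was 376 bp wide, so a region centred in a short 3′ UTR also covered coding or downstream sequence.

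**Figure D2:**
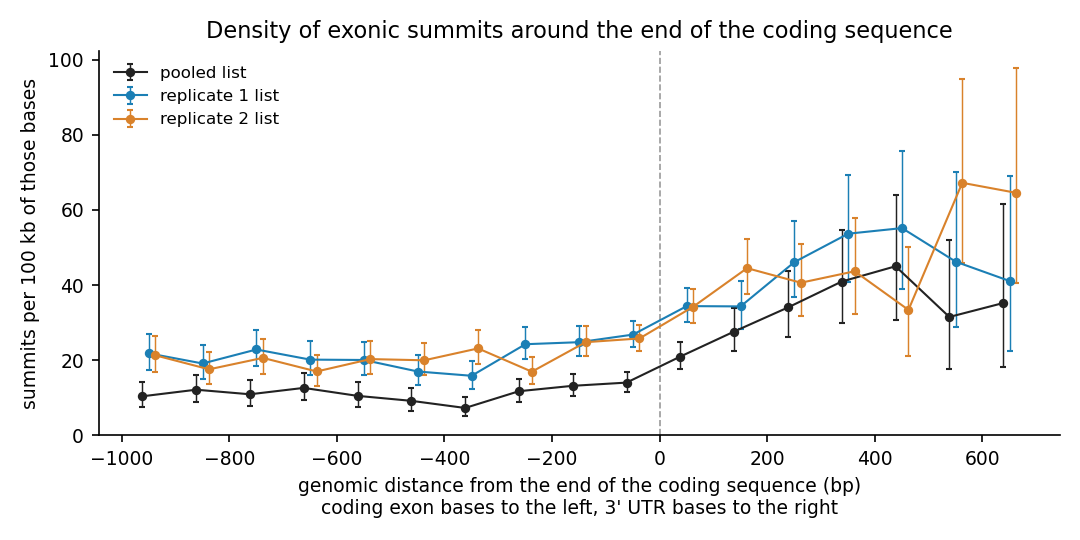
Summits per 100 kb of the gene's own coding bases (left of the dashed line) or 3′ UTR bases (right of it) by genomic distance from the end of the coding sequence, in steps of 100 bp; points are the 3 lists, error bars exact 95% Poisson intervals, and bases in promoters are left out. The pooled density is 14.04 in the last step of coding sequence, 20.97 in the first step of 3′ UTR and 40.9 between 300 and 400 bp, and intervals widen to the right because few 3′ UTRs are that long.

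Base composition differs sharply between these places, so densities were also set side by side at matched GC content. Eligible coding exon sequence averaged 41.5 ± 6.86% GC and eligible 3′ UTR sequence 31.4 ± 7.32% (SD over windows reaching 50 bp to either side). Where the window held 30 to 35% GC, 3′ UTRs had 26.0 regions per 100 kb (21.3 to 31.4) and coding exons 12.29 (10.7 to 13.98). Where it held 40 to 45% GC, 3′ UTRs had 36.3 (26.9 to 48.0) and coding exons 10.2 (9.23 to 11.3). Replicate 1 gave 43.7 and 20.8 per 100 kb at 40 to 45% GC, and replicate 2 gave 36.3 and 19.3. Within coding exons the pooled density was 15.5 per 100 kb below 30% GC and 9.74 at 45% or more. The difference between 3′ UTRs and coding exons was therefore present at equal GC content in each list, and a smaller slope with GC ran through coding exons.

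Among coding exons the last one of a gene had 12.1 regions per 100 kb (10.5 to 13.7) and internal ones 10.8 (10.2 to 11.4), intervals that overlap. In replicate 1 the last exon had 23.3 (21.2 to 25.6) and internal ones 21.8 (20.99 to 22.7). In replicate 2 the last exon had 23.2 (21.1 to 25.5) and internal ones 19.1 (18.3 to 19.9), and there the intervals do not overlap. Of the coding exon regions 81.8% lay in internal exons, against 83.5% of eligible coding sequence. 3′ UTRs that face a convergent neighbour had 30.4 regions per 100 kb (26.9 to 34.3), and those followed by a gene on the same strand had 28.4 (24.6 to 32.5), so a neighbour's orientation gave no difference beyond counting error. With 3′ UTRs included, 632 exonic regions (32.2%) lay within 500 bp of the gene's 3′ end, against 23.5% of eligible sequence. Genes with a region in the 3′ UTR had a median length of 5030.5 bp, and eligible 3′ UTR positions lay in genes with a median of 3752 bp. Sequence present more than once in the genome was almost missing. The 51 bases at the summit recurred elsewhere for 1 exonic region (0.051%), against 3.18% of eligible sequence, and the authors' treatment of reads with several matches is not stated.

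Exonic regions, counted together, were scarce among the strongest sites. The score is the authors' own signal value of each region, set against the control. Its scale is not stated, so regions are ranked within a list, and scores of different lists are only set side by side for the same region. The exonic share was lowest at the top of the ranking. None of the 100 autosomal regions of highest score was exonic (0 of 100 allows a share of up to 3%), and 72 were in promoters. The share was 5.50% between ranks 100 and 500, 50 of 500 regions between ranks 500 and 1000, and 12.64% beyond rank 10000. Replicate 1 had 1 exonic region in its highest 100 and 15.4% beyond rank 10000. Replicate 2 had 4 in its highest 100 and 14.9% beyond rank 10000. The share stayed below the 18.3% of sequence in each rank step of the 3 lists.

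**Figure D3:**
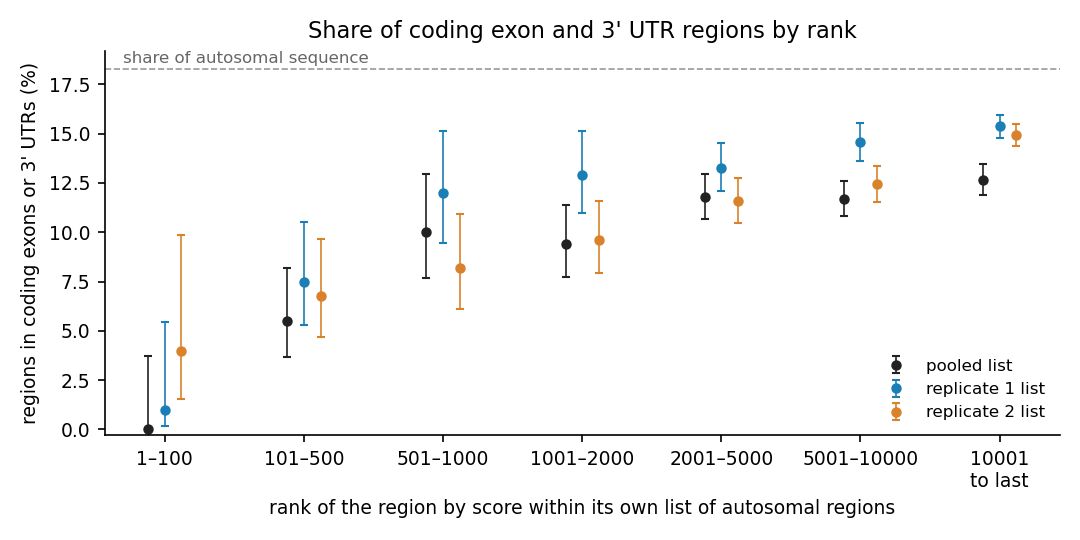
Share of autosomal regions with an exonic summit (vertical axis, percent) by rank of the region's score within its list, for the pooled list and each replicate's list; error bars are 95% Wilson intervals and the dashed line is the exonic share of autosomal sequence. The share is 0 of 100 in the uppermost pooled step and 12.64% in the lowest. Coding exons and 3′ UTRs are counted together.

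Scores of exonic regions overlapped those of other places almost completely. The median pooled score was 11.4 for exonic regions, with quartiles of 10.1 and 13.6 and a range of 9.17 to 34.7. For the other autosomal regions the median was 11.7, with quartiles of 10.3 and 14.2 and a highest value of 116.3. Regions in 3′ UTRs had a median of 12.01, above the 11.3 of coding exons, and close to the 11.9 of promoters. In the replicates' own lists the medians were 6.81 in 3′ UTRs and 6.42 in coding exons of replicate 1, and 5.62 and 5.32 in replicate 2. A score of 15 or more was reached by 20.4% of 3′ UTR regions, 14.1% of coding exon regions and 22.3% of promoter regions. At 25 or more the shares were 1.70% in 3′ UTRs, 0.335% in coding exons and 3.52% in promoters. Introns had 0.806% and intergenic sequence 1.31%. At 30 or more, 2 3′ UTR regions (0.426%) and 1 coding exon region (0.067%) were left, against 129 promoter regions (2.13%). Introns had 0.375% and intergenic sequence 0.556% at that score.

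One exonic region of 1962 (0.051%) lay in a thresholded peak, against 0.840% of all autosomal regions and 1.04% of the whole pooled list. No coding exon region did, and 0 of 1492 allows a share of up to 0.201%. Promoter regions were in a thresholded peak in 1.65% of cases, intronic ones in 0.338% and intergenic ones in 0.360%. Seen from the peaks, 100 of the 141 autosomal thresholded summits were in promoters, 18 in introns and 11 in intergenic sequence. Another 11 were in 5′ UTRs or noncoding exons, which do not count as exonic regions here. Of the rest, 1 was in a 3′ UTR and 0 in coding exons. Any overlap with a thresholded peak, in place of the summit, raised the exonic share to 0.153%, or 3 regions.

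The region in a thresholded peak was in the 3′ UTR of mom-5, a Frizzled receptor of the Wnt pathway. It spanned positions 9969486 to 9969861 of chromosome I, with its summit 363 bp before the gene's 3′ end. Its score was 34.7 in the pooled list, where it ranked 120 among autosomal regions, 17.4 in replicate 1 and 11.1 in replicate 2. It was the highest exonic region of the pooled list. Its summit, at position 9969674, was on the same chromosome as ztf-11, the gene that the transgene carries, which spans 9904303 to 9910545. The region lay beyond the 40 kb on either side of ztf-11 counted below. Whether its place near ztf-11 matters was not tested.

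Exonic regions recurred between replicates about as often as other regions. A region of each replicate's list held the summit of 472 exonic regions (24.1%, 22.2 to 26.0), against 25.5% of all autosomal regions. For 3′ UTRs the share was 29.8% (25.8 to 34.1), for coding exons 22.3% (20.2 to 24.4), and for promoters 27.3%. Replicate 1 alone held 751, replicate 2 alone 489, and neither list held 250. Regions found in both lists had a median pooled score of 13.6, and those found in neither 10.5. Across the 472 exonic regions in both lists, which are not independent replicates, the scores of replicates 1 and 2 showed Pearson's r of 0.11. Spearman's rho was -0.00085, against 0.28 across promoter regions, 0.060 across intronic and 0.13 across intergenic ones. All these regions had passed into the pooled list and both replicate lists, which limits the range of their scores. The highest pooled score was 34.7 for exonic and 116.3 for promoter regions, so these values do not compare agreement between places.

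The 20 exonic regions of highest score scored from 22.97 to 34.7 and ranked between 120 and 447 among autosomal regions. Of these, 8 were in 3′ UTRs and 12 in coding exons, 7 of the 12 in a gene's last coding exon. Regions of both replicates held 14 of them, against 24.1% of all exonic regions. Within 500 bp of the gene's 3′ end lay 12, against 32.2% of all exonic regions. AAAGTT was within 50 bp of the summit in 6, against 13.3% of all exonic regions and 12.4% of eligible sequence. The 20 were chosen for their pooled score, which draws on both replicates, and these differences were not tested.

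Among the 3′ UTRs, ccch-1, which encodes a CCCH zinc finger protein, had a pooled score of 29.5, with 19.9 in replicate 1 and 14.5 in replicate 2. daf-16, the FOXO transcription factor of the insulin pathway, had 25.01, with 18.6 in replicate 1 and 7.67 in replicate 2. Both were found in each replicate. By contrast, the 3′ UTR of pal-1, a Caudal homeobox gene, had 29.8 in the pooled list and 17.7 in replicate 2, and no region of replicate 1 held its summit. The 3′ UTR of dpy-27, a condensin subunit of the X chromosome dosage compensation complex, had 27.6 and was held by replicate 1 alone, at 13.2. The npr-39 3′ UTR, in a gene named for a neuropeptide receptor, had 30.3 and was also held by replicate 1 alone, at 10.1. C52A11.3 had 25.8 and was held by replicate 2 alone, at 19.97, whereas a 3′ UTR summit of W06H8.6 scored 25.6, with 10.2 in replicate 1 and 8.04 in replicate 2.

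Among the coding exons, nlr-1, a neurexin-like receptor gene, was highest at 32.6, with 20.2 in replicate 1 and 9.68 in replicate 2. lpl-1 scored 29.9, with 18.4 in replicate 1 and 7.35 in replicate 2. T21H3.5 had 28.6 in the pooled list, 9.19 in replicate 1 and 20.3 in replicate 2. The highest region of dhc-4, a dynein heavy chain gene, scored 26.8 and was held by replicate 2 alone, at 14.5. The globin gene glb-25 had 25.6, with 11.0 in replicate 1 and 11.8 in replicate 2. The hedgehog-related gene wrt-3 had 24.5, with 11.2 in replicate 1 and 7.74 in replicate 2. The remaining 6 (che-7, dhs-20, dyf-19, tag-68, R04B5.7 and C54G6.3) scored 22.97 to 23.8, and tag-68 was the only one of them missing from a replicate, here replicate 2.

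**Figure D4:**
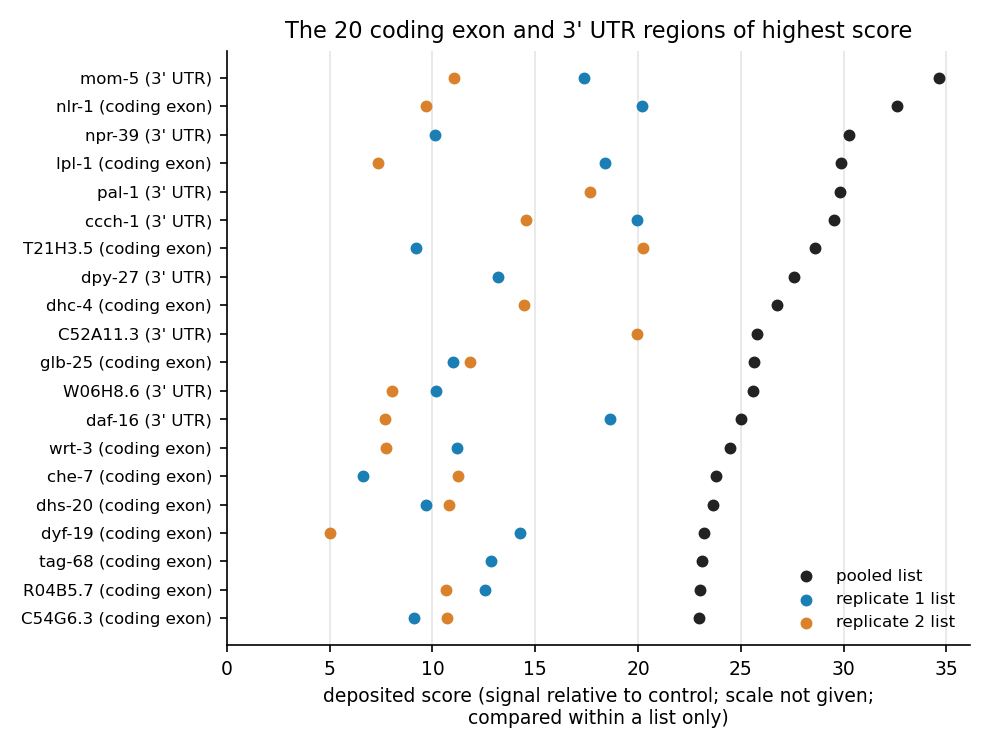
Deposited scores (horizontal axis, authors' signal relative to control) of the 20 exonic regions of highest pooled score, 1 row per region with its gene, in the pooled list and in the region of each replicate that holds the summit; a missing point means that no region of that replicate did. Scores of the replicates do not follow the pooled order, and 14 of the 20 rows have both points.

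Most genes with an exonic region had a single one. Of 13318 autosomal genes with eligible sequence, 1719 (12.9%) held at least 1, of which 1518 held 1 and 201 held more. This share depended on how much eligible sequence a gene had. It was 3.66% below 500 bp and 44.8% at 5000 bp or more, while the regions per 100 kb were 13.8 and 8.42 in those genes. Gene groups are therefore described by density below, against 12.9 regions per 100 kb for all genes with eligible sequence. That value is not matched for the amount of eligible sequence per gene.

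dhc-4 had the most, 7 regions with pooled scores of 9.31 to 26.8, none of which was found in both replicates. hlh-30, the worm TFEB gene of lysosome and autophagy control, had 5 at scores of 9.64 to 15.2, also with none in both replicates, within 2891 bp of eligible sequence. frm-1, a FERM domain gene, had 5, of which 2 were found in both replicates. W06H8.6 had 4, all in 3′ UTR sequence and 3 of them found in both replicates. cla-1, an active zone protein gene of synapses, had 4, of which 2 were found in both replicates. Over all exonic regions 24.1% were found in both replicates, and the counts per gene are too small to compare with that share. Neighbouring summits of frm-1 and hlh-30 were as little as 201 bp apart, so regions of 1 gene are not independent.

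Among the 22 gene lists examined, transcription factors of neurogenesis and neuron identity had the highest density of those with 5 or more regions. They held 12 regions in 10 of 31 genes, or 35.1 per 100 kb (18.2 to 61.4), against 12.9 for all genes, with a median score of 14.7 against 11.4. By single lists, the density was 46.8 in replicate 1 (26.8 to 76.1) and 41.0 in replicate 2 (22.4 to 68.8), against 23.9 and 21.9 for all genes. Of the 12 regions, 5 were found in both replicates and 0 in a thresholded peak. Over all exonic regions these shares were 24.1% and 0.051%, so counts among 12 regions say little. The intervals were not widened for the choice of the highest of 22 lists. All 22 were chosen with earlier results of these data known. egl-27, a MTA-family corepressor that is also in the chromatin list, scored 18.4, with 9.63 in replicate 1 and 4.15 in replicate 2. Its summit was 503 bp from the 5′ end and so just past the edge of the promoter window. The Hox gene mab-5 scored 17.9, with 4.86 in replicate 1 and 7.88 in replicate 2. nsy-7, a factor of olfactory neuron asymmetry, had 2 regions, at 15.6 and 11.8. The homeobox and zinc finger repressor gene zag-1 scored 14.4, with 5.20 in replicate 1 and 9.31 in replicate 2. cog-1, a homeobox gene of taste neuron asymmetry, was the fifth gene with a region in both replicates, at 11.4 in the pooled list. The other genes with regions were unc-55, hlh-2, ast-1, mec-3 and sem-4, with pooled scores from 9.47 to 15.5. These genes beyond the first 3 were named after their values were seen, and no test was made.

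Chromatin and DNA repressor complexes held 15 regions in 14 of 31 genes, or 21.4 per 100 kb (12 to 35.4), an interval that includes the 12.9 of all genes. In replicate 1 the density was 40.03 and in replicate 2 it was 21.4, against 23.9 and 21.9 for all genes, so replicate 2 by itself gave no excess. Apart from egl-27 the highest were spr-1, the CoREST gene, at 19.3, with 9.16 in replicate 1 and 10.6 in replicate 2, and the 3′ UTR of spr-4, a zinc finger gene, at 16.7, with 11.4 in replicate 2 only. Pan-neuronal and neurotransmitter genes held 10 regions in 7 of 25 genes, or 19.1 per 100 kb (9.17 to 35.1). None of the 10 was found in both replicates, against 24.1% of all exonic regions, a difference not tested in so few. Their highest were unc-13, unc-64 and snt-1, genes of synaptic vesicle release, at 16.09, 12.5 and 11.8.

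The lists of very long structural genes and of muscle genes had the lowest densities of those with 5 or more regions. Very long structural genes held 18 regions in 11 of 31 genes, or 4.24 per 100 kb (2.51 to 6.71). Actin, myosin and body muscle genes held 12 in 9 of 28 genes, or 6.36 per 100 kb (3.29 to 11.1). Their eligible sequence was 424199 bp in the 31 structural genes and 188556 bp in the 28 muscle genes. All genes with 5000 bp or more of eligible sequence had 8.42 per 100 kb. The muscle interval includes that value and the structural interval does not. Neither list was compared with genes of like length. The 2 lists share 4 genes, which held 6 of the 12 muscle regions. Without these 4 genes the muscle list had 8.29 per 100 kb (3.04 to 18.1), an interval that includes 12.9, and the structural list 3.90 (2.01 to 6.81). The giant muscle gene unc-89, in both lists, had the highest at 19.5, held by replicate 1 alone. The following lists had intervals that include the density of all genes. Epidermis, seam and cuticle regulators had 10.2 per 100 kb, led by lin-29, elt-6 and lin-41 at 16.43, 16.3 and 14.6. Germline and P granule genes had 10.1, led by nos-1 at 15.9, and collagens had 8.84, led by col-120 at 13.4. Serpentine receptors, the largest list, had 14.1 per 100 kb in 81 of 1032 genes, led by str-90 at 21.6, and nuclear hormone receptors had 14.7, led by nhr-146 at 20.9. F-box, MATH and BTB families had 10.3, led by fbxa-75 at 15.7. The other 11 lists held 0 to 2 regions each. These were in eef-2, eif-3.D, rps-7, hsp-1, cct-7, pbs-4, rpt-6, idha-1, hxk-3, asp-1 and pqn-8, with scores from 9.28 to 14.5. There were none in the tubulin, histone and ATP synthase lists, nor in the glia list, whose 28988 bp of eligible sequence gave an interval of 0 to 12.73 per 100 kb, just under the 12.9 of all genes. No region of any list was in a thresholded peak, which held only 0.051% of all exonic regions.

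**Figure D5:**
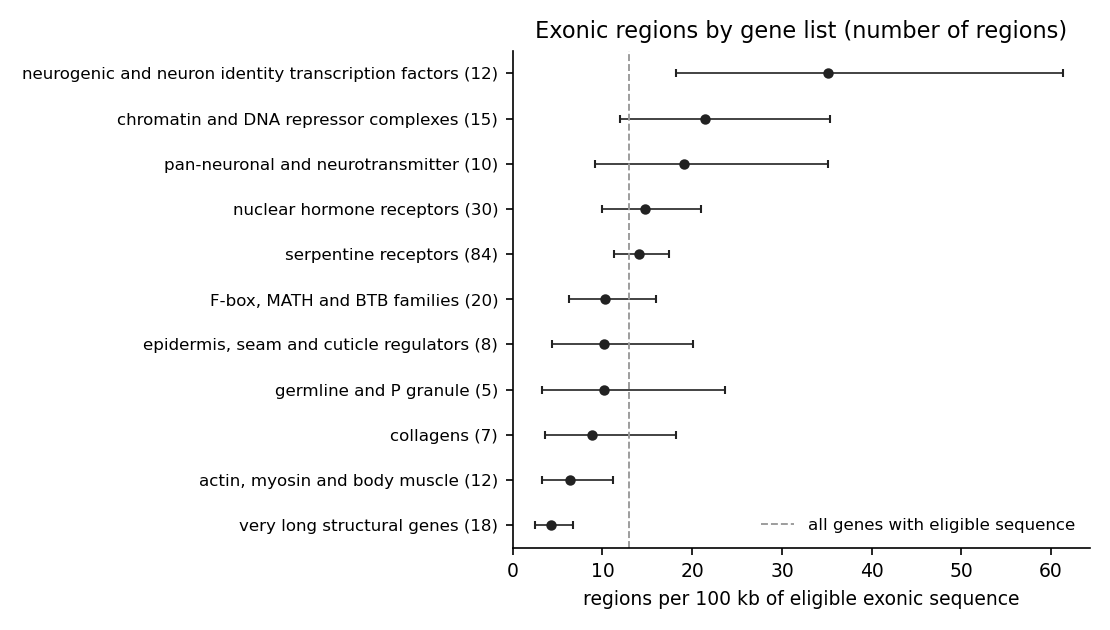
Exonic regions per 100 kb of eligible exonic sequence (horizontal axis) for each gene list with at least 5 regions, the number of regions in brackets; bars are exact 95% Poisson intervals and the dashed line is the value for all genes with eligible sequence, 12.9. Neuron identity factors are highest at 35.1 and very long structural genes lowest at 4.24. The dashed line is not matched for the amount of eligible sequence per gene.

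The core AAAGTT was no more frequent at exonic summits than in the sequence they came from. It was found within 50 bp of 12% of coding exon summits (10.4 to 13.7), against 11.9% of eligible coding sequence. In 3′ UTRs the shares were 17.4% of summits (14.3 to 21.1) and 17.3% of eligible sequence. The shares were 22.03% at intronic, 23.7% at intergenic and 19.03% at promoter summits. Mean GC content was 30.9%, 32.7% and 34.1% at these summits in the same order, and 40.7% at coding exon summits, and the places were not compared at matched GC content for this core. At 30 to 35% GC the core was in 19.7% of coding exon summits and 18.4% of eligible coding sequence. Scores differed little with the core, with a median of 11.7 for exonic regions that held it and 11.4 for those without. A pair of other 6-base words was counted in the same windows on both strands. AGAGAG was in 8.51% of 3′ UTR summits (6.31 to 11.4), against 5.76% of eligible 3′ UTR sequence, and in 3.42% of coding exon summits, against 3.56%. GCGCGA was in 1.49% of 3′ UTR summits (0.723 to 3.04), against 0.614%, and in 0.737% of coding exon summits, against 0.785%.

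Around ztf-11 itself, the gene that the transgene carries, 1 exonic region was among the 39 pooled regions within 40 kb of the gene. It lay in a coding exon of sqv-5 and scored 10.02. Of all autosomal regions 11.7% were exonic, and 17.2% of the sampled positions in this stretch were eligible. Whether 1 of 39 differs from these shares was not tested. At the edge of the promoter window, the 89 exonic regions within 100 bp outside it had a median score of 11.3, and the 94 regions just inside it, which were not exonic regions, had 11.5.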

How the data were processed

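The authors called regions for each replicate and for the pooled reads against a control, and a thresholded set was derived by the irreproducible discovery rate, per the file headers (text notes with each sample). No source used here names the aligner, caller or threshold, or gives read depth. The deposited score is the authors' signal value; the deposited summit offset gave the other quantity used. Positions refer to ce11, which equals WBcel235, annotated with Ensembl release 115.

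Eligible sequence was sampled every 200 bp (75716 positions). Shares have 95% Wilson and densities exact Poisson intervals; an upper limit for 0 used 3 counts. With 1 group no test was made. Classification and motif search were tested on simulated data. Named genes were those in a thresholded peak, the 20 highest regions, the 5 genes with most regions, and up to 3 per list. The members and the 22 lists were chosen with earlier results of these data known. Software was scipy 1.17.1 for intervals, pandas 2.3.3 and numpy 2.4.6 for tables and matplotlib 3.10.9 for figures, under Python 3.11.15.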

Additional observations from a re-analysis of the deposited data

How the results depend on the processing

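No paired analysis was possible because there is only 1 group. The results were recomputed with each replicate's list in place of the pooled one, other promoter windows, coding exons or 3′ UTRs alone, other overlaps and windows, and without low scores or repeated sequence. The last, the region centre and 1 row per interval moved nothing by more than the interval or spread used. The ce10 lists were not run, and a single replicate's list gives no share in both lists. The cause of the shifts below was not tested.

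The exonic share of regions was 15.9% with promoters of 1000 to 0 bp, 8.96% with 2000 to 1000 bp, 10.7% with the 5′ ends of every transcript, and 13.5% to 14.6% in single replicates' lists, and it was 8.89% for coding exons and 2.80% for 3′ UTRs. The share in a thresholded peak was 0% for coding exons and 0% against the upper part of the nuclear peaks. The share in both lists was 29.8% for 3′ UTRs, 38.7% for regions at or above the median score and 34.6% with any overlap. The median score was 5.38 to 6.49 in single lists and 13.9 at or above the median score. Mean GC content was 40.7% in coding exons, 31.5% in 3′ UTRs, 38.7% to 39.3% in single lists, 37.99% at or above the median score, 39.2% in 25 bp and 37.5% in 100 bp on either side. The AAAGTT share was 17.4% in 3′ UTRs, 6.63% in 25 bp and 28.1% in 100 bp on either side. The share near the 3′ end was 17.8% for coding exons, 78.1% for 3′ UTRs, 28.2% to 31.7% in single lists and 36.6% at or above the median score. The share of genes with a region was 10.1% for coding exons, 3.28% for 3′ UTRs, 20.9% to 21.9% in single lists and 6.25% at or above the median score. After the data were seen, the density of 3′ UTRs over that of coding exons was added, at 1.83 to 2.16 in single lists and 3.46 at or above the median score. The neuron identity list had 41.0 to 46.8 regions per 100 kb in single lists, and the chromatin list 21.4 to 40.03, or 10.01 at or above the median score, against 5.89 for all genes. Intervals cover counting error only, and without read counts no depth could be set beside a score.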
